A study of Homo sapiens with 18 samples.

Results

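The genes described here are the human zinc finger genes named in the ZBTB, ZSCAN and ZKSCAN series. They were chosen by symbol alone, and 68 of the 26485 gene symbols counted match, with 41 ZBTB, 20 ZSCAN and 7 ZKSCAN genes. Of the 68 genes, 61 had enough counts to be tested (40 ZBTB, 14 ZSCAN and 7 ZKSCAN) among 14011 genes tested in all. Their poly(A) RNA was counted in 3 established human pancreatic cancer lines, BxPC3, Panc327 and SUIT2, each given 100 nM THZ1 or the vehicle DMSO for 6 h. THZ1 binds CDK7 covalently and blocks it, and it acts on CDK12 and CDK13 as well; CDK7 is the TFIIH subunit that phosphorylates RNA polymerase II. Each of the 6 groups held 3 libraries. Nothing in the labels says that these were cultured separately, and every p-value therefore reflects the spread between these samples alone, which may be technical. No genetic change and no other agent is named for any group.

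These factors bind DNA through C2H2 zinc fingers and differ in the domain at their other end. The BTB domain of ZBTB proteins forms dimers and docks corepressor complexes such as those built on NCOR1 and BCOR, and many members act as repressors of cell fate, cell cycle or immune genes. ZSCAN proteins carry a SCAN domain, a leucine-rich dimerization module that pairs SCAN proteins with each other. ZKSCAN proteins carry a KRAB domain as well, and KRAB domains recruit TRIM28, which brings the histone methyltransferase SETDB1 and heterochromatin proteins.

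Gene counts per library ranged from 5626146 to 8631273, and the 68 genes together held between 0.0528% and 0.131% of them. All levels below are in CPM, the counts of a gene relative to the TMM-scaled library total, and fold changes are log2 of THZ1 over DMSO unless another contrast is named. A call means an edgeR quasi-likelihood p, adjusted over all 14011 genes by Benjamini-Hochberg, under 0.05. The counting tool set aside multiply aligned records, which were 22.8% ± 0.805 of BxPC3 files with THZ1 and 12.8% ± 0.609 with DMSO, and 52.8% ± 1.81 and 13.6% ± 0.149 in Panc327 (SD, n = 3, exact 2-sided permutation p = 0.1 each, the smallest that 3 against 3 allows). In SUIT2 they were 12.9% ± 0.902 with THZ1 and 13.2% ± 0.726 with DMSO (SD, n = 3, exact permutation p = 0.7). Their part in the member results was not tested. The epithelial markers KRT8, KRT18, KRT19 and EPCAM averaged over 140 CPM in every group, and CDH1 averaged 28.8 ± 2.07 CPM with THZ1 and 27.3 ± 4.16 CPM with DMSO in SUIT2 but over 620 CPM in the other lines (SD, n = 3). Markers of other cell types were summed per library. The 4 leukocyte markers summed to between 0 and 6.59 CPM with THZ1 and between 0 and 3.75 CPM with DMSO over the 3 lines, and PTPRC had 1 count in all 18 libraries. The 4 fibroblast markers, nearly all COL1A1 (DCN had 0 counts), summed to 63.9 to 74.5 CPM with THZ1 and 48.2 to 50.9 CPM with DMSO in Panc327, and to 14.8 to 19.8 CPM with THZ1 and 7.79 to 11.9 CPM with DMSO in BxPC3. The 3 endothelial markers summed to 16.6 to 18.6 CPM with THZ1 and 12.2 to 13.6 CPM with DMSO in Panc327, and to 6.58 to 7.42 CPM with THZ1 and 4.07 to 4.99 CPM with DMSO in BxPC3. In SUIT2 the fibroblast sums were under 1 CPM, and the endothelial sums were 2.55 to 4.06 CPM with THZ1 and 2.32 to 3.40 CPM with DMSO. The part of these markers in the member results was not tested. In such bulk samples, fewer cells of a kind and less RNA per cell cannot be told apart.

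Most of these genes fell with THZ1 in BxPC3 and Panc327, and few changed in SUIT2. In BxPC3 50 of 61 were called (69.4% of all genes tested), of which 42 fell and 8 rose, where 34.1% of all genes tested fell and 35.2% rose. The median log2 fold change of the 61 genes was -1.23, against 0.00 over all genes. In Panc327 52 of 61 were called (73.4% of all genes), of which 45 fell and 7 rose, where 37.8% of all genes fell and 35.6% rose, and the median was -1.43, against -0.01 over all genes. In SUIT2 9 of 61 were called (14.6% of all genes), of which 5 fell and 4 rose, beside 7.64% and 6.95% of all genes, and the median was -0.05. The 61 include ZBTB21 in BxPC3 and ZKSCAN7 in SUIT2, which had 0 counts there and no call. The SUIT2 counts were the least steady: 1 rose without the second DMSO library, 2 rose without the second or the third THZ1 library, 3 fell without the third DMSO library and 2 fell without the third THZ1 library, and DESeq2 called 1 rise and 2 falls. A fall of at least 2-fold was called for 33 genes in BxPC3 (15.1% of all genes), 37 in Panc327 (19.0%) and 0 in SUIT2 (0.450%). A rise of at least 2-fold was called for 2 genes in BxPC3 (5.73% of all genes), 4 in Panc327 (7.69%) and 0 in SUIT2 (0.143%). BxPC3 and Panc327 shared 37 genes that fell, out of the 42 and the 45, where 26.3% of all genes fell in both. ZBTB20, ZBTB34 and ZBTB43 rose in both, as did 26.1% of all genes.

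The families differed in how uniform the fall was. All 14 ZSCAN genes tested fell in Panc327 and 13 of 14 fell in BxPC3, and 0 rose in either line. Their median log2 fold change was -1.98 in BxPC3 and -2.23 in Panc327. All 7 ZKSCAN genes fell in Panc327 (median -1.92), and in BxPC3 5 fell, ZKSCAN8 rose (not with scaling to library size alone) and ZKSCAN7 was not called (median -1.28). Of 40 ZBTB genes, 24 fell and 7 rose in each of BxPC3 (median -0.65) and Panc327 (median -0.91). Every gene of the set that rose in Panc327 was a ZBTB gene, as were 7 of the 8 that rose in BxPC3. ZBTB genes were 40 of the 61 tested, and the 17.5% of them that rose in each line was below the share over all genes. Over all genes tested, 34.1% fell and 35.2% rose in BxPC3, and 37.8% fell and 35.6% rose in Panc327. Of 442 numbered ZNF genes tested, the wider C2H2 class, 290 fell and 45 rose in BxPC3 (median -1.03), and 363 fell and 22 rose in Panc327 (median -1.40). No test compared the families with each other.

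**Figure D1:**
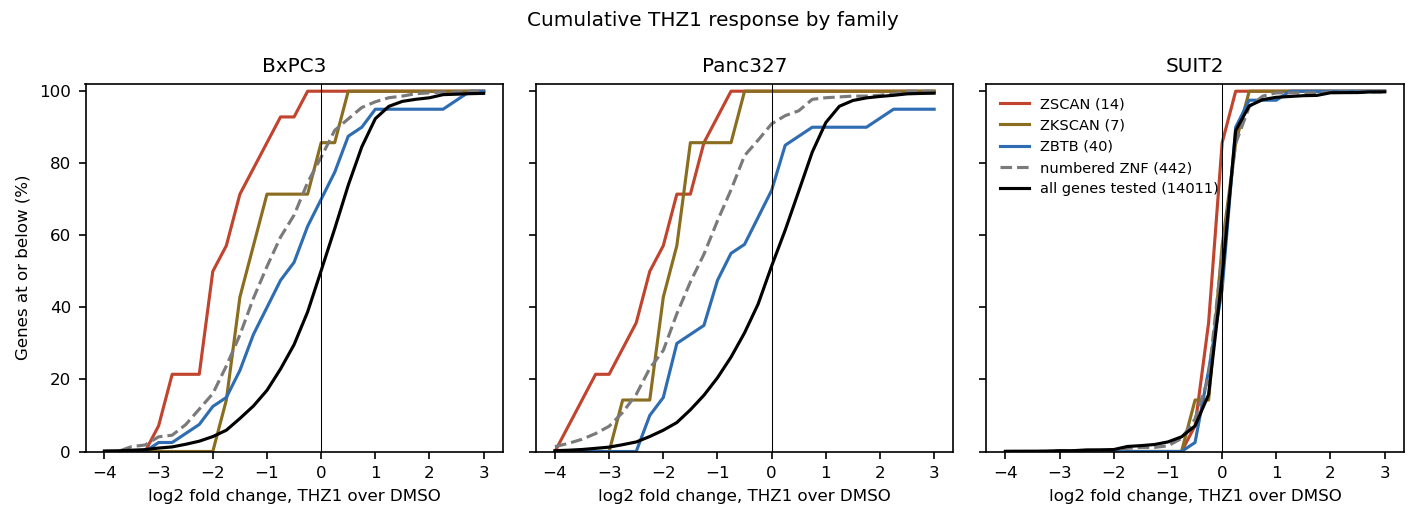
Cumulative share of genes (percent, vertical axis) at or below each log2 fold change of THZ1 over DMSO (horizontal axis, in steps of 0.25) for the families, numbered ZNF genes and all genes tested, with the number of genes in the legend. At a log2 fold change of -1, the curves stand at 85.7% of ZSCAN, 71.4% of ZKSCAN, 40.0% of ZBTB and 17.0% of all genes in BxPC3, at 92.9%, 85.7%, 47.5% and 20.5% in Panc327, and at 0% of all 3 families in SUIT2.

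Summed over all 20 ZSCAN genes, the level was 54.4 ± 1.81 CPM with THZ1 and 169 ± 9.55 CPM with DMSO in BxPC3, and 41.5 ± 2.67 CPM with THZ1 and 156 ± 7.01 CPM with DMSO in Panc327 (SD, n = 3). In SUIT2 the ZSCAN sums were 104 ± 5.07 CPM with THZ1 and 116 ± 0.340 CPM with DMSO. The ZKSCAN sums were 86.5 ± 3.10 CPM with THZ1 and 182 ± 4.20 CPM with DMSO in BxPC3, and 40.9 ± 4.53 CPM with THZ1 and 122 ± 5.98 CPM with DMSO in Panc327. The 41 ZBTB genes summed to 704 ± 18.5 CPM with THZ1 and 864 ± 10.3 CPM with DMSO in BxPC3, and to 569 ± 28.3 CPM with THZ1 and 836 ± 12.3 CPM with DMSO in Panc327. In these 6 comparisons the THZ1 libraries all lay below the DMSO libraries. In SUIT2 the ZBTB sum was 798 ± 7.79 CPM with THZ1 and 798 ± 29 CPM with DMSO, and the ZKSCAN sum was 151 ± 4.64 CPM with THZ1 and 151 ± 6.56 CPM with DMSO (SD, n = 3).

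Fold changes were also set out by level. In BxPC3 the 24 genes tested with a mean under 5 CPM had a median log2 fold change of -1.41, the 17 genes from 5 to 20 CPM had -1.30, and the 20 genes at 20 CPM or more had -0.34. All genes tested had medians of -0.11, -0.35 and 0.19 in the same 3 ranges. In Panc327 the medians were -1.47 for 23 members under 5 CPM, -1.86 for 21 members from 5 to 20 CPM and -0.70 for 17 members at 20 CPM or more, against -0.03, -0.35 and 0.12 over all genes. In Panc327 the middle range thus had the lowest median. The part of the level in the families' response was not tested.

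**Figure D2:**
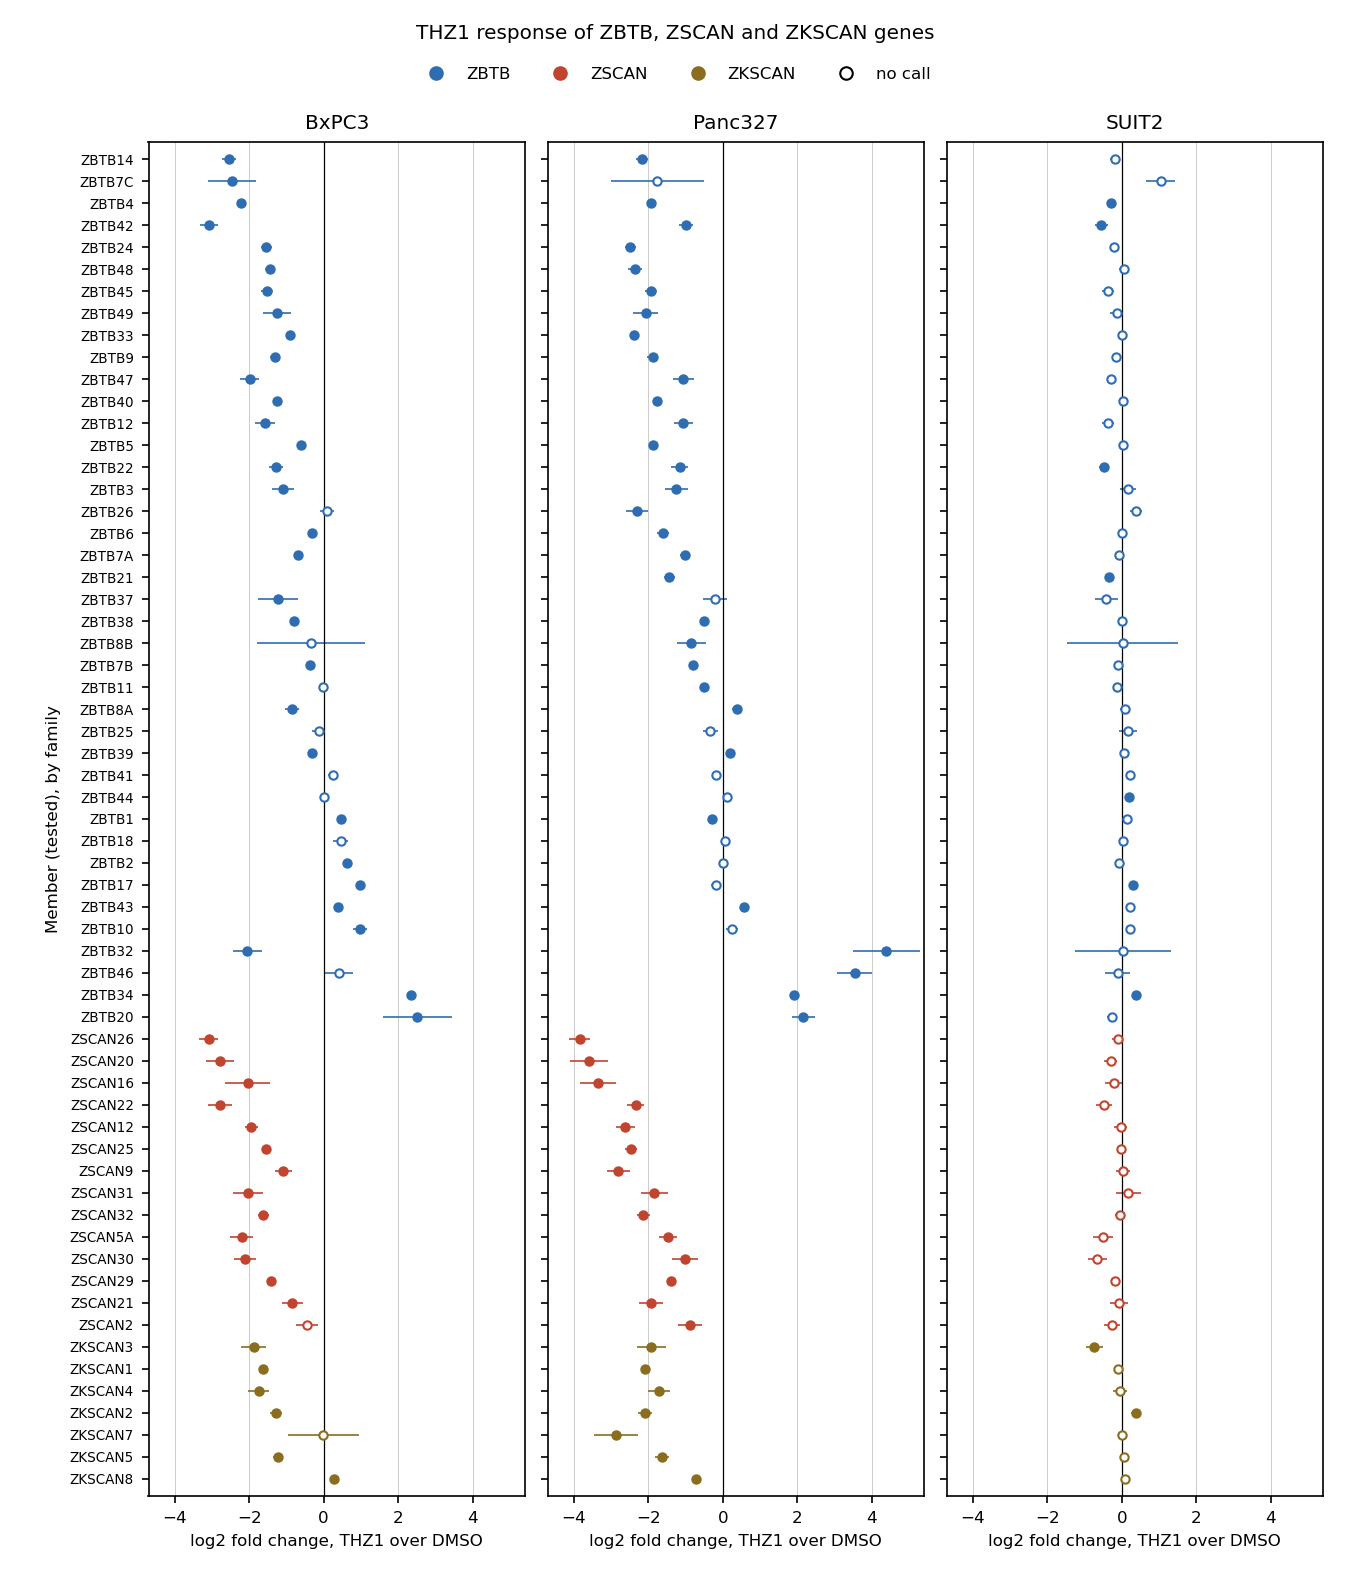
Log2 fold change of THZ1 over DMSO (horizontal axis) with its standard error for the 61 genes tested (rows, by family, ordered by the mean of BxPC3 and Panc327) in each line; filled points are calls. All 14 ZSCAN points lie left of 0 in BxPC3 and Panc327, while ZBTB34 lies right of 0 in all 3 lines. ZBTB21 is left out for BxPC3, where it had 0 counts. ZKSCAN7 also had 0 counts in SUIT2, and its point at 0 there is no measured value. Wide bars mark genes with few counts, whose fitted values are uncertain.

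ZBTB34 was the gene that rose in all 3 lines, a pattern called for 3.62% of all genes tested. It had 69.0, 66.3 and 62.8 CPM in BxPC3 with THZ1, against 14.5, 12.3 and 12.4 CPM with DMSO. In Panc327 it had 68.0, 70.6 and 83.1 CPM with THZ1, against 19.2, 20.6 and 19.2 CPM with DMSO. SUIT2 libraries had 22.4, 26.0 and 25 CPM with THZ1, against 19.8, 17.2 and 19.3 CPM with DMSO. The groups did not overlap in any line, which was a condition of choosing ZBTB34 and is no added evidence. The rise was far larger in BxPC3 and Panc327 than in SUIT2. The log2 fold changes were 2.34 (SE 0.09, edgeR adjusted p = 5.56e-40) in BxPC3, 1.91 (SE 0.08, edgeR adjusted p = 1.09e-36) in Panc327 and 0.38 (SE 0.10, edgeR adjusted p = 0.0045) in SUIT2. The response exceeded that of SUIT2 by 1.96 (SE 0.14) in BxPC3 and by 1.53 (SE 0.13) in Panc327, with edgeR adjusted p = 1.11e-22 and 2.59e-18.

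ZBTB43, which has a part in male germ cell development in the mouse, is the next gene of the set on chromosome 9. It lies at chr9:126805006-126838210 and ZBTB34 at chr9:126860665-126885878, both on the plus strand of GRCh38 (GENCODE 29), with 22455 bases between them. ZBTB43 had 42.0, 40.7 and 36.5 CPM in BxPC3 with THZ1, against 31.3, 29.7 and 30.9 CPM with DMSO, and 36.3, 48.2 and 45.6 CPM in Panc327 with THZ1, against 26.2, 29.7 and 31.4 CPM with DMSO. The log2 fold changes were 0.37 (SE 0.09, edgeR adjusted p = 1.63e-04) in BxPC3 and 0.56 (SE 0.09, edgeR adjusted p = 4.07e-08) in Panc327, and scaling to library size alone turned the BxPC3 value to -0.02. In SUIT2 ZBTB43 had 22.4, 26.7 and 27.8 CPM with THZ1 and 22.5, 20.6 and 22.2 CPM with DMSO, which overlap and gave no call (0.23, edgeR adjusted p = 0.104). The stretches just upstream of these 2 genes are shown because the neighbours rose together, in both lines with a strong response. Both are from RefSeq on GRCh38.p14, plus strand, chr9:126860519-126860638 for ZBTB34 and chr9:126804886-126805005 for ZBTB43, and end before the annotated starts. Capitals mark CCGGAAG, the core that ETS factors bind, and GGGCGG, the GC box that SP factors bind, on either strand.
ZBTB34: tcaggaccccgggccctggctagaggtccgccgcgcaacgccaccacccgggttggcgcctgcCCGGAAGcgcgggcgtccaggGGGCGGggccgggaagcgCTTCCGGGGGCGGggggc
ZBTB43: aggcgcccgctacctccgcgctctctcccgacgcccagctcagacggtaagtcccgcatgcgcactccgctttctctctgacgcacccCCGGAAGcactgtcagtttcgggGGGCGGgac
ZBTB34 held CCGGAAG in 2 places and GGGCGG in 2 places in this stretch, and ZBTB43 held each in 1 place.

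Other genes that rose were split between the lines. ZBTB17, which encodes MIZ-1, a partner through which MYC represses genes, had 36.1, 40.3 and 41.4 CPM in BxPC3 with THZ1, against 21.5, 18.5 and 20.4 CPM with DMSO. Its log2 fold change was 0.96 (SE 0.10, edgeR adjusted p = 5.77e-15) in BxPC3 and -0.19 (SE 0.14, edgeR adjusted p = 0.209) in Panc327 (-0.51 and called with library size alone), a difference of 1.15 (SE 0.17, edgeR adjusted p = 1.12e-08). In SUIT2 it had 23.4, 18.6 and 16.6 CPM with THZ1 and 17.5, 15.6 and 14.4 CPM with DMSO. These groups overlap, and the call (0.31, edgeR adjusted p = 0.0458) was lost under each of 7 other settings (adjusted p between 0.0525 with RLE size factors and 0.117 with DESeq2) and without any 1 of 4 libraries. ZBTB2, a repressor in the p53 pathway, averaged 59.6 ± 2.93 CPM with THZ1 and 38.9 ± 0.999 CPM with DMSO in BxPC3 (SD, n = 3, log2 fold change 0.61). In Panc327 ZBTB2 averaged 44.3 ± 2.36 CPM with THZ1 and 43.9 ± 0.676 CPM with DMSO, a log2 fold change of 0.01 that turned to -0.32 with scaling to library size alone.

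ZBTB1, which lymphoid cells need for their development, rose in BxPC3 and fell in Panc327. It averaged 65.1 ± 1.99 CPM with THZ1 and 47.3 ± 3.0 CPM with DMSO in BxPC3, and 28.8 ± 1.82 CPM with THZ1 and 35.2 ± 2.25 CPM with DMSO in Panc327 (SD, n = 3). The log2 fold changes were 0.46 and -0.29, and the responses differed by 0.75 (SE 0.11, edgeR adjusted p = 5.18e-08). The Panc327 fall was not called with RLE size factors (-0.17, edgeR adjusted p = 0.0781) or with DESeq2 (-0.17, adjusted p = 0.115). The BxPC3 rise was 0.07 with scaling to library size alone (edgeR adjusted p = 0.423). Exons of ZBTB1 and ZBTB25 share 507 of the 5283 exon bases of ZBTB1 on opposite strands, and reads from that stretch cannot be told apart without strand. ZBTB10 averaged 9.20 ± 0.680 CPM with THZ1 and 4.65 ± 0.285 CPM with DMSO in BxPC3 (SD, n = 3, log2 fold change 0.98), and in Panc327 and SUIT2 it was not called (0.24 and 0.22), though the Panc327 value was called with RLE size factors (0.36, edgeR adjusted p = 0.0365).

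In all, 5 genes were called in opposite directions in BxPC3 and Panc327, or 8.2% of those tested, where 4.34% of all genes were. ZBTB1 and ZKSCAN8 rose in BxPC3 and fell in Panc327, and ZBTB8A, ZBTB32 and ZBTB39 did the reverse. With scaling to library size alone, the rise of ZKSCAN8 in BxPC3 turned to -0.12 and that of ZBTB39 in Panc327 to -0.14, and that of ZBTB8A in Panc327 was 0.05, all without a call. ZBTB1 lost its call on one side or the other with library size alone, RLE size factors or DESeq2, as given above. ZKSCAN8, a KRAB and SCAN factor, had 32.0, 35.2 and 32.6 CPM in BxPC3 with THZ1, against 27.9, 28.3 and 26.2 CPM with DMSO. In Panc327 it had 14.9, 17.2 and 20.7 CPM with THZ1, against 27.6, 30.9 and 27.1 CPM with DMSO, and its responses differed by 0.98 (SE 0.14, edgeR adjusted p = 8.21e-09). ZBTB8A had 5.51, 5.13 and 4.15 CPM in BxPC3 with THZ1 and 8.52, 9.5 and 8.43 CPM with DMSO, and 12.5, 16.8 and 17.2 CPM in Panc327 with THZ1 and 12, 10.9 and 12.7 CPM with DMSO. Its Panc327 groups overlap, and its exons share bases with ZBTB8OS on the other strand. ZBTB39 averaged 23.2 ± 1.63 CPM with THZ1 and 28.8 ± 1.82 CPM with DMSO in BxPC3, and 40.8 ± 4.5 CPM with THZ1 and 35.7 ± 2.25 CPM with DMSO in Panc327 (SD, n = 3), where the libraries overlap and the call (0.19, edgeR adjusted p = 0.0391) was lost without the filter on low counts and without any 1 of 4 libraries. The Panc327 call of ZBTB8A (0.37, edgeR adjusted p = 0.00979) was lost without any 1 of 3 libraries.

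At low counts, 3 ZBTB genes known from other tissues rose in Panc327. ZBTB20, a repressor of the fetal alpha-fetoprotein gene in liver, had 5.21, 3.93 and 5.13 CPM with THZ1, against 1.11, 0.965 and 1.09 CPM with DMSO (log2 fold change 2.17, SE 0.31, edgeR adjusted p = 1.07e-09). ZBTB46, a factor of classical dendritic cells, averaged 3.18 ± 1.13 CPM with THZ1 and 0.256 ± 0.129 CPM with DMSO (SD, n = 3), or 49 and 7 counts in all. ZBTB32, a repressor of lymphocytes, had 17 counts with THZ1 and 1 with DMSO in Panc327, a scaled ratio of 29.7 (95% exact interval 4.65 to 1241, counting error only). In BxPC3 ZBTB20 had 9 counts with THZ1 and 2 with DMSO, a ratio of 6.72 (95% exact interval 1.39 to 63.9), and its call there was lost when the first or the third DMSO library or the third THZ1 library was left out. In SUIT2 ZBTB20 was not called, with 14.6, 14.9 and 11.9 CPM with THZ1 and 19.3, 14.4 and 15.9 CPM with DMSO.

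**Figure D3:**
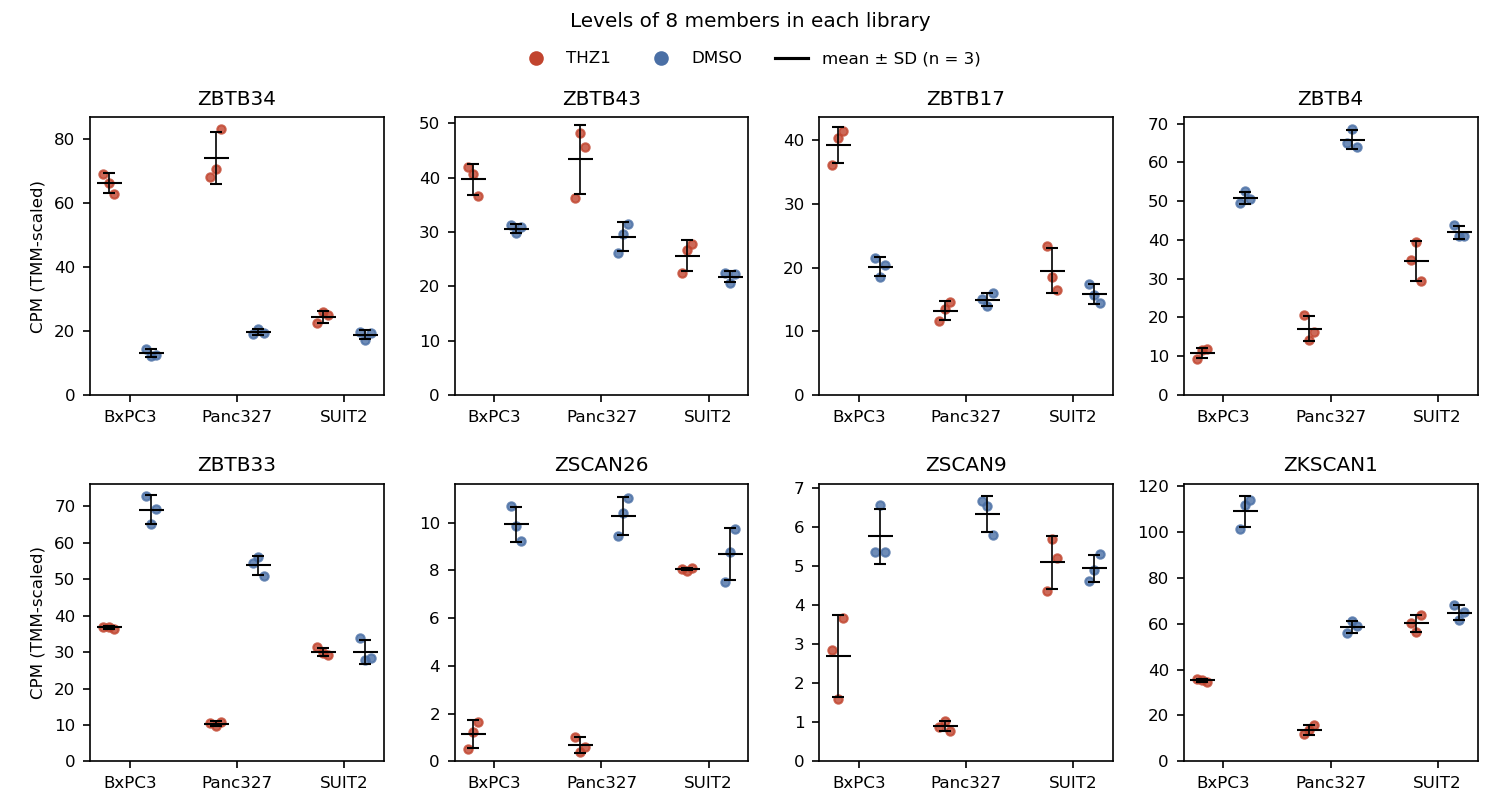
CPM (vertical axes, from 0) of 8 genes in each library, with THZ1 left of DMSO in each line, and the mean ± SD of 3 libraries as bars. ZBTB34 is higher with THZ1 than with DMSO in every line and ZBTB17 in BxPC3, while ZBTB4, ZBTB33, ZSCAN26, ZSCAN9 and ZKSCAN1 are lower with THZ1 in BxPC3 and Panc327 than with DMSO.

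The ZBTB proteins that recognise methylated DNA are ZBTB33 (Kaiso), ZBTB4 and ZBTB38, and all 3 fell in both BxPC3 and Panc327. A fall in both lines was called for 19 of the 40 ZBTB genes tested and for 26.3% of all genes. Nothing particular to these 3 genes is read from their falls. ZBTB33 had 37.0, 36.9 and 36.4 CPM in BxPC3 with THZ1, against 72.9, 65.1 and 69.3 CPM with DMSO, and 10.6, 9.72 and 10.9 CPM in Panc327 with THZ1, against 54.4, 56.1 and 51.0 CPM with DMSO. Its log2 fold changes were -0.91 (SE 0.08, edgeR adjusted p = 1.91e-19) and -2.37 (SE 0.11, edgeR adjusted p = 1.68e-36), and the difference of 1.46 (SE 0.14, edgeR adjusted p = 1.92e-15) means a smaller fall in BxPC3. In SUIT2 ZBTB33 averaged 30.1 ± 1.10 CPM with THZ1 and 30.0 ± 3.23 CPM with DMSO (SD, n = 3). ZBTB38 averaged 26.7 ± 0.844 CPM with THZ1 and 46.6 ± 4.12 CPM with DMSO in BxPC3, and 23.5 ± 0.970 CPM with THZ1 and 33.3 ± 0.952 CPM with DMSO in Panc327 (log2 fold changes -0.80 and -0.50). In SUIT2 it averaged 34.6 ± 2.06 CPM with THZ1 and 34.5 ± 3.87 CPM with DMSO.

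ZBTB4 was among 4 genes that fell in all 3 lines (6.56% of those tested, beside 4.32% of all genes), with ZBTB22, ZBTB42 and ZKSCAN3. ZBTB4 had 9.25, 11.5 and 11.8 CPM in BxPC3 with THZ1, against 49.4, 52.5 and 50.6 CPM with DMSO, and 20.6, 14.3 and 16.4 CPM in Panc327 with THZ1, against 65.1, 68.6 and 64.0 CPM with DMSO. Its log2 fold changes were -2.22 (SE 0.11, edgeR adjusted p = 4.16e-33) and -1.93 (SE 0.10, edgeR adjusted p = 1.14e-32). In SUIT2 ZBTB4 had 34.7, 39.6 and 29.4 CPM with THZ1, against 44.0, 41.0 and 41.0 CPM with DMSO (log2 fold change -0.29, edgeR adjusted p = 0.00928). That call was lost without the first DMSO library (-0.26, edgeR adjusted p = 0.0502) and without the third THZ1 library (-0.19, edgeR adjusted p = 0.171). ZBTB22 averaged 9.78 ± 0.474 CPM with THZ1 and 13.6 ± 0.510 CPM with DMSO in SUIT2 (SD, n = 3), a log2 fold change of -0.47 with edgeR adjusted p = 0.0062, and fell by 1.29 in BxPC3 and by 1.16 in Panc327 on the log2 scale.

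ZBTB4 starts 103 bases from POLR2A, the gene of the largest RNA polymerase II subunit, which is transcribed the other way and rose in all 3 lines. ZBTB4 lies at chr17:7459366-7484263 on the minus strand and POLR2A at chr17:7484366-7514616 on the plus strand. POLR2A averaged 1388 ± 13.2 CPM with THZ1 and 432 ± 24.1 CPM with DMSO in BxPC3, 1152 ± 20.2 CPM with THZ1 and 669 ± 10.4 CPM with DMSO in Panc327, and 565 ± 6.74 CPM with THZ1 and 296 ± 1.23 CPM with DMSO in SUIT2 (SD, n = 3). The pair therefore moved in opposite directions by -2.22 and 1.68, -1.93 and 0.78, and -0.29 and 0.93 for ZBTB4 and POLR2A in BxPC3, Panc327 and SUIT2. The stretch between the starts is shown because both genes begin from it, as RefSeq gives it on the minus strand of GRCh38.p14, chr17:7484264-7484383. Its left end reaches the first bases of POLR2A, and capitals mark CCGCCC, the reverse of GGGCGG.
ZBTB4: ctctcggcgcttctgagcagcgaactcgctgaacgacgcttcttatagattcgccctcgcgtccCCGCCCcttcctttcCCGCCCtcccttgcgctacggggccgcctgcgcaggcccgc
Other genes of the set with a counted partner starting within 1000 bases on the other strand were ZBTB37, ZBTB49, ZSCAN30, ZSCAN32 and ZSCAN5A. Of the 5 pairs with both genes tested, all 5 set members fell in BxPC3, and their partners gave 3 falls, 1 rise (POLR2A) and 1 gene without a call. In Panc327, 4 of these members fell, and the partners of those 4 gave 3 falls and 1 rise, again POLR2A. Among all genes tested, 34.1% fell and 35.2% rose in BxPC3, and 37.8% fell and 35.6% rose in Panc327. Nothing particular to paired starts is read from so few pairs. ZSCAN32 and ZNF174, another SCAN gene 170 bases away, fell together, by 1.62 and 2.07 in BxPC3 and by 2.13 and 2.83 in Panc327 on the log2 scale.

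ZBTB7A, ZBTB7B and ZBTB14 fell in BxPC3 and Panc327. ZBTB7A (LRF), a repressor in blood and epithelial cells, averaged 35.7 ± 2.22 CPM with THZ1 and 58.0 ± 1.90 CPM with DMSO in BxPC3, and 14.3 ± 2.24 CPM with THZ1 and 29.3 ± 3.67 CPM with DMSO in Panc327 (SD, n = 3, log2 fold changes -0.70 and -1.02). ZBTB7B (ThPOK), which sets the CD4 T cell fate, averaged 18.5 ± 3.40 CPM with THZ1 and 23.8 ± 1.82 CPM with DMSO in BxPC3, and 21.6 ± 2.04 CPM with THZ1 and 37.3 ± 2.28 CPM with DMSO in Panc327 (SD, n = 3, log2 fold changes -0.36 and -0.79). The BxPC3 call of ZBTB7B was lost without the first THZ1 library (edgeR adjusted p = 0.0962). ZBTB14, named ZF5 as a repressor of Myc in the mouse, had 3.38, 2.65 and 2.49 CPM in BxPC3 with THZ1, against 17.8, 15.9 and 16.2 CPM with DMSO (log2 fold change -2.54, SE 0.19, edgeR adjusted p = 1.34e-22). In Panc327 ZBTB14 fell by 2.17 on the log2 scale, and in SUIT2 its value was -0.17 with no call.

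ZBTB42 had the largest fall of a ZBTB gene in BxPC3, with 1.24, 1.41 and 1.5 CPM with THZ1, against 11.9, 14.5 and 9.22 CPM with DMSO (log2 fold change -3.08, SE 0.25, edgeR adjusted p = 3.52e-20). In Panc327 it had 4.16, 5.38 and 5.33 CPM with THZ1, against 11.5, 8.79 and 9.06 CPM with DMSO, and the fall was larger in BxPC3 by 2.09 on the log2 scale (SE 0.36, edgeR adjusted p = 8.67e-07). In SUIT2 it had 6.5, 4.61 and 4.86 CPM with THZ1, against 6.80, 8.91 and 7.84 CPM with DMSO (log2 fold change -0.55, edgeR adjusted p = 0.0255), a call lost with DESeq2, limma voom or any of 4 libraries left out. ZBTB26 fell in Panc327 and was not called in BxPC3. It had 6.22, 7.42 and 7.31 CPM in BxPC3 with THZ1 and 5.84, 6.9 and 7.06 CPM with DMSO, which overlap, and 1.74, 0.828 and 1.18 CPM in Panc327 with THZ1, against 5.88, 5.68 and 7.42 CPM with DMSO. Its responses differed by 2.37 (SE 0.36, edgeR adjusted p = 4.51e-08).

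ZBTB24 and ZBTB48 fell in BxPC3 and Panc327, and ZBTB11 fell in Panc327 with no call in BxPC3. ZBTB24, mutated in an immunodeficiency with loss of DNA methylation, averaged 7.43 ± 1.13 CPM with THZ1 and 21.8 ± 2.17 CPM with DMSO in BxPC3, and 6.08 ± 2.38 CPM with THZ1 and 34.0 ± 1.21 CPM with DMSO in Panc327 (SD, n = 3, log2 fold changes -1.54 and -2.48). Its exons share 305 bases with MICAL1 on the same strand. ZBTB48 (TZAP), which binds telomeric repeats, averaged 8.34 ± 1.37 CPM with THZ1 and 22.7 ± 0.0705 CPM with DMSO in BxPC3, and 3.37 ± 0.991 CPM with THZ1 and 17.0 ± 1.77 CPM with DMSO in Panc327 (SD, n = 3, log2 fold changes -1.45 and -2.35). ZBTB11, a regulator of nuclear genes for mitochondrial proteins, averaged 30.9 ± 0.882 CPM with THZ1 and 43.4 ± 3.5 CPM with DMSO in Panc327 (log2 fold change -0.49), and in BxPC3 55.3 ± 3.55 CPM with THZ1 and 56.0 ± 3.53 CPM with DMSO (SD, n = 3), with no call except with library size alone (-0.41). Its exons share bases with the antisense gene ZBTB11-AS1.

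No call was made in any line for ZBTB18, ZBTB25 and ZBTB41. ZBTB18, a repressor in the developing brain, averaged 5.19 ± 0.821 CPM with THZ1 and 3.81 ± 0.598 CPM with DMSO in BxPC3 (log2 fold change 0.45, edgeR adjusted p = 0.05002, a rise called with RLE size factors at 0.0321 and with DESeq2 at 0.0419), 18.1 ± 0.361 CPM with THZ1 and 17.2 ± 1.23 CPM with DMSO in Panc327 (-0.25 with library size alone), and 29.2 ± 2.26 CPM with THZ1 and 28.6 ± 1.47 CPM with DMSO in SUIT2 (SD, n = 3).

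ZSCAN26 had the largest fall of the set in Panc327 and of a ZSCAN gene in BxPC3. It had 0.534, 1.24 and 1.66 CPM in BxPC3 with THZ1, against 10.7, 9.84 and 9.22 CPM with DMSO (log2 fold change -3.08, SE 0.26, edgeR adjusted p = 2.35e-19). In Panc327 it had 1.04, 0.414 and 0.592 CPM with THZ1, against 9.42, 10.4 and 11 CPM with DMSO (log2 fold change -3.84, SE 0.29, edgeR adjusted p = 1.87e-21). SUIT2 libraries had 8.06, 7.99 and 8.11 CPM with THZ1 and 7.53, 8.79 and 9.72 CPM with DMSO, which overlap. The groups did not overlap in BxPC3 and Panc327, which was a condition of choosing ZSCAN26. Every THZ1 library of these lines was below every SUIT2 library. ZSCAN20 averaged 0.631 ± 0.172 CPM with THZ1 and 4.47 ± 0.670 CPM with DMSO in BxPC3, and 0.269 ± 0.234 CPM with THZ1 and 3.23 ± 0.874 CPM with DMSO in Panc327 (SD, n = 3, log2 fold changes -2.78 and -3.58). ZSCAN22 averaged 0.809 ± 0.0929 CPM with THZ1 and 5.71 ± 0.678 CPM with DMSO in BxPC3, and 2.20 ± 0.708 CPM with THZ1 and 11 ± 1.04 CPM with DMSO in Panc327 (log2 fold changes -2.79 and -2.33).

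ZSCAN9 was 1 of 2 ZSCAN genes, of 14 tested, whose responses differed between BxPC3 and Panc327 (14.3%, beside 36.3% of all genes). It had 2.85, 1.59 and 3.65 CPM in BxPC3 with THZ1, against 5.35, 6.56 and 5.35 CPM with DMSO, and 0.868, 1.03 and 0.789 CPM in Panc327 with THZ1, against 6.65, 6.54 and 5.78 CPM with DMSO. The log2 fold changes were -1.08 and -2.80, and they differed by 1.72 (SE 0.44, edgeR adjusted p = 0.00106). In SUIT2 it averaged 5.09 ± 0.670 CPM with THZ1 and 4.93 ± 0.347 CPM with DMSO. ZSCAN12 fell by 1.94 in BxPC3 and by 2.61 in Panc327, and ZSCAN25 fell by 1.55 and by 2.46, on the log2 scale. ZSCAN21, which in the mouse acts in cerebellar granule cells, averaged 2.08 ± 0.269 CPM with THZ1 and 3.75 ± 0.190 CPM with DMSO in BxPC3, and 1.11 ± 0.383 CPM with THZ1 and 4.17 ± 1.09 CPM with DMSO in Panc327 (SD, n = 3, log2 fold changes -0.85 and -1.93), and shares 880 exon bases with ZNF3 on the other strand.

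ZKSCAN1, the host of a circular RNA that these counts do not separate, had 35.9, 35.5 and 34.4 CPM in BxPC3 with THZ1, against 101, 112 and 114 CPM with DMSO. In Panc327 it had 11.8, 13.7 and 16.0 CPM with THZ1, against 56.0, 61.2 and 59.0 CPM with DMSO. The log2 fold changes were -1.63 (SE 0.07, edgeR adjusted p = 1.06e-36) and -2.10 (SE 0.10, edgeR adjusted p = 6.02e-35), and SUIT2 gave -0.11 with no call. ZKSCAN3, a repressor of autophagy genes, averaged 1.04 ± 0.0389 CPM with THZ1 and 3.87 ± 0.756 CPM with DMSO in BxPC3, 0.754 ± 0.329 CPM with THZ1 and 2.94 ± 0.151 CPM with DMSO in Panc327, and 2.80 ± 0.783 CPM with THZ1 and 4.63 ± 0.11 CPM with DMSO in SUIT2 (SD, n = 3, log2 fold changes -1.88, -1.92 and -0.74). The SUIT2 call of ZKSCAN3 was lost with DESeq2 (adjusted p = 0.073) and without the third THZ1 library (-0.54, edgeR adjusted p = 0.153), and reads of ZKSCAN3 and its near copy ZKSCAN4 may be split between them. ZKSCAN2 fell by 1.28 in BxPC3 and by 2.08 in Panc327 and was called higher in SUIT2 (13.6 ± 1.16 CPM with THZ1 and 10.4 ± 1.06 CPM with DMSO, SD, n = 3, log2 fold change 0.37, edgeR adjusted p = 0.0362), a call lost with DESeq2, without the filter on low counts and without any 1 of 4 SUIT2 libraries.

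The upstream stretches of ZKSCAN1, ZSCAN9 and ZSCAN22 are shown as members that fell strongly with different letters before their starts. They are from RefSeq on GRCh38.p14, plus strand, at chr7:100015452-100015571 (ZKSCAN1), chr6:28224766-28224885 (ZSCAN9) and chr19:58326874-58326993 (ZSCAN22). Capitals mark CCGGAAG as before, the NFY-bound box CCAAT and the core of sites for CREB and ATF factors, TGACGT, on either strand.
ZKSCAN1: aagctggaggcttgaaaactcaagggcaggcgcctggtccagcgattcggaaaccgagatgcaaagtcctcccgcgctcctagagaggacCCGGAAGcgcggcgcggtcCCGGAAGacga
ZSCAN9: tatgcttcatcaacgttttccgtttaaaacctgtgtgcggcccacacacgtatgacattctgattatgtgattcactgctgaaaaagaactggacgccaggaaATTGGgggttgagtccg
ZSCAN22: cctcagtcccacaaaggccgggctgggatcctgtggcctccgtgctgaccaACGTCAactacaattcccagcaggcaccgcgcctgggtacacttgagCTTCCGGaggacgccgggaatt
ZKSCAN1 held CCGGAAG in 2 places, ZSCAN9 held CCAAT in 1 place (printed as its reverse ATTGG), and ZSCAN22 held TGACGT and CCGGAAG in 1 place each, both printed as their reverse. Genes that rose (ZBTB34, ZBTB43) and genes that fell (ZKSCAN1, ZSCAN22) both held CCGGAAG.

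Of the 68 genes, 59 had a RefSeq promoter, and 5 motifs were searched on both strands in the 250 bases before the start, beside 15843 protein-coding promoters of the same length. No motif searched contains another. CCGGAAG was in 17 of 59 (28.8%) and in 11.8% of all promoters, and the 17 were 8 of 35 ZBTB, 5 of 18 ZSCAN and 4 of 6 ZKSCAN promoters. GGGCGG was in 40 of 59 (67.8%) and in 55.8% of all promoters, and CCAAT in 23 of 59 (39.0%) and in 34.5% of all. TATAAA was in 1 of 59 (1.69%) and in 9.35% of all promoters, and TGACGT in 4 of 59 (6.78%) and in 8.66% of all. The median GC content of the 250 bases was 63.2% in the set and 62.0% over all promoters. A match describes letters in this window only, and no test was made of these shares.

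A run of 9 genes of the set lies on chromosome 6 within 318.943 kb, at chr6:28124560-28443502, in the large cluster of zinc finger genes beside the histone genes. Of the 9 genes 8 were tested. All 8 fell in Panc327 and 7 fell in BxPC3, where ZKSCAN8 rose (-0.12 with library size alone), and in SUIT2 only ZKSCAN3 fell. Of all genes tested, 37.8% fell in Panc327, 34.1% in BxPC3 and 7.64% in SUIT2. All 14 ZSCAN and all 7 ZKSCAN genes tested fell in Panc327, and 13 and 5 of them fell in BxPC3. Nothing particular to the run is read from these counts. ZKSCAN8 starts 17.4 kb from ZSCAN16, whose log2 fold changes were -2.04 in BxPC3 and -3.34 in Panc327, against 0.28 and -0.70 for ZKSCAN8. ZSCAN31 fell by 2.02 in BxPC3 and by 1.83 in Panc327, ZKSCAN4 by 1.74 and 1.71, and ZSCAN12 by 1.94 and 2.61 on the log2 scale. ZSCAN23, the ninth gene, had 5 counts in 18 libraries.

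**Figure D4:**
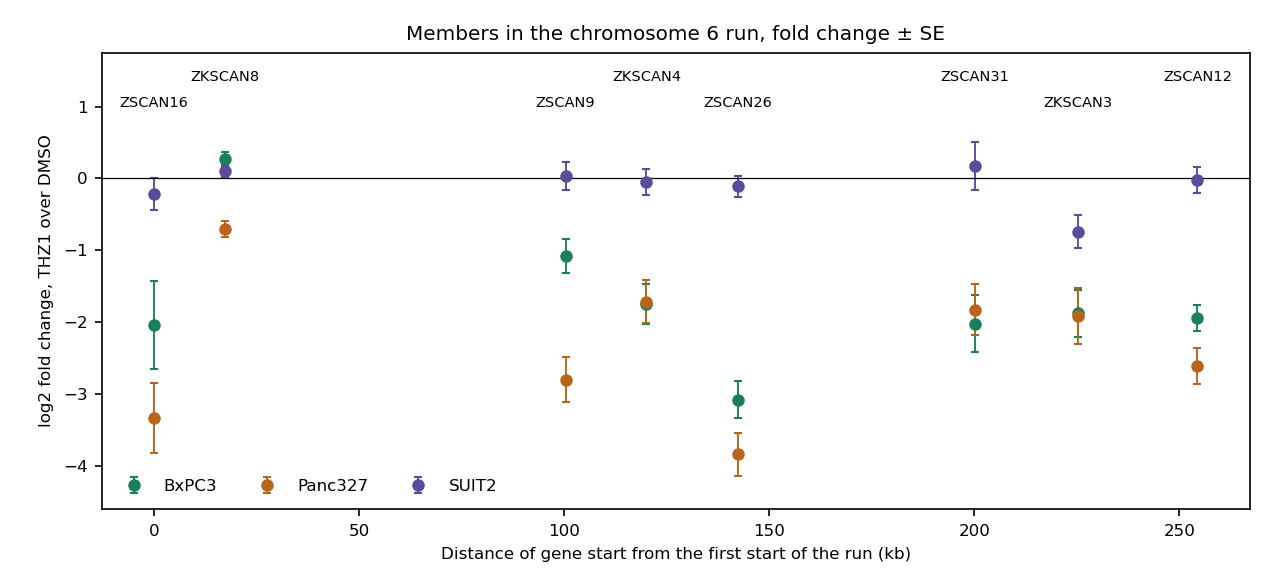
Log2 fold change of THZ1 over DMSO (vertical axis) with its standard error for the 8 genes tested of the chromosome 6 run, by the distance in kb of each gene's start from the first start (horizontal axis). A start here is the lowest coordinate of the gene, whichever its strand. ZSCAN26 lies lowest in BxPC3 (-3.08) and Panc327 (-3.84), ZKSCAN8 lies above 0 in BxPC3 (0.28, but -0.12 with library size alone), and SUIT2 points lie between -0.74 and 0.17.

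Members were also split by gene span, a split that was not made for all genes tested. Of all genes of any span, 34.1% fell and 35.2% rose in BxPC3, and 37.8% fell and 35.6% rose in Panc327. Of the 61 genes, the 31 with a span of at most the median of 23557 bases had a median log2 fold change of -1.42 in BxPC3 (27 fell, 1 rose) and -1.88 in Panc327 (28 fell, 2 rose). The 30 longer genes had medians of -0.53 in BxPC3 (15 fell, 7 rose) and -0.67 in Panc327 (17 fell, 5 rose). ZSCAN genes were shorter, with a median span of 17224 bases, against 25298 for ZBTB genes and 21931 for ZKSCAN genes. Within the ZBTB genes, the 18 with a span up to that median had a median log2 fold change of -1.19 in BxPC3 (15 fell, 0 rose) and -1.20 in Panc327 (15 fell, 2 rose), and the 22 longer ones had -0.08 (9 fell, 7 rose) and -0.25 (9 fell, 5 rose). Within the ZSCAN genes, the 9 with shorter spans had medians of -1.62 in BxPC3 and -2.46 in Panc327 (9 fell in each), and the 5 longer ones had -2.11 (4 fell) and -1.47 (5 fell). The 4 ZKSCAN genes with shorter spans had medians of -1.51 in BxPC3 and -1.82 in Panc327. The 3 longer ones had -1.23 and -2.10. Split at the median exon length of 5308 bases, the shorter members had medians of -1.30 and -1.86, and the longer ones -0.82 and -0.93. The part of span or exon length in the families' response was not tested.

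Responses were compared directly between lines. The response of BxPC3 was higher than that of Panc327 for 20 of 61 genes and lower for 5, where 22.2% and 14.1% of all genes were (36.3% in either direction). It was higher than that of SUIT2 for 6 genes and lower for 37 (27.3% and 27.6% of all genes, 54.9% in either direction), and the response of Panc327 was higher than that of SUIT2 for 5 and lower for 42 (28.3% and 32.4% of all genes, 60.7% in either direction). The 5 became 3 without the first Panc327 DMSO, the third Panc327 THZ1, the first SUIT2 DMSO or the first SUIT2 THZ1 library. These contrasts share libraries with each other and with those of THZ1 against DMSO.

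With DMSO alone, the lines differed in many of these genes, but in a smaller share of them than of all genes tested. BxPC3 differed from Panc327 in 42 of 61 (22 higher and 20 lower, beside 79.3% of all genes, with 38.6% higher and 40.7% lower), from SUIT2 in 45 (27 higher and 18 lower, beside 78.6%, with 38.9% higher and 39.7% lower), and Panc327 differed from SUIT2 in 39 (22 higher and 17 lower, beside 82.5%, with 42.9% higher and 39.6% lower). Per kilobase of exon, the highest levels in BxPC3 were those of ZBTB33 (13.0 ± 0.730 CPM per kb), ZBTB2 (12.6 ± 0.323) and ZBTB5 (12.2 ± 0.28), which lay within their spread of each other (SD, n = 3). In Panc327 ZBTB2 led with 14.2 ± 0.219 CPM per kb, apart from ZBTB4 (10.8 ± 0.396) and ZBTB33 (10.1 ± 0.489), which overlap. In SUIT2 ZBTB2 led with 8.37 ± 0.569 CPM per kb (SD, n = 3), and the next level lay within its spread.

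Among the genes that set the lines apart with DMSO, ZBTB7A and ZBTB5 were higher in BxPC3 than in Panc327 by 0.99 and 0.91 on the log2 scale, and ZSCAN30 by 1.01. ZBTB18 averaged 3.81 ± 0.598 CPM in BxPC3, 17.2 ± 1.23 CPM in Panc327 and 28.6 ± 1.47 CPM in SUIT2 (SD, n = 3), which is a log2 difference of -2.17 for BxPC3 against Panc327 and of -2.91 against SUIT2. ZBTB20 averaged 0.0754 ± 0.131 CPM in BxPC3, 1.05 ± 0.0785 CPM in Panc327 and 16.5 ± 2.51 CPM in SUIT2 (SD, n = 3). ZBTB33 was higher in BxPC3 than in SUIT2 by 1.20, ZSCAN12 by 1.32 and ZBTB25 by 1.45. ZBTB45 was higher in Panc327 than in SUIT2 by 1.21 and ZSCAN5A by 1.23, while ZBTB10 and ZBTB47 were lower by 1.21 and 1.66, all on the log2 scale. Reads of ZSCAN5A may be split with its near copy ZSCAN5B, and exons of ZSCAN30 share bases with ZNF397. All DMSO differences given here had edgeR adjusted p of 1.79e-05 or less.

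ZBTB21 had 0 counts in all 6 BxPC3 libraries. With DMSO it averaged 20.5 ± 0.681 CPM in Panc327 and 21.5 ± 1.27 CPM in SUIT2 (SD, n = 3), at least 177-fold and at least 185-fold higher than in BxPC3 against a floor of 3 counts over the BxPC3 DMSO group. The genes around it were also near 0 in BxPC3. Over 6 libraries each, PRDM15 had 0 counts in BxPC3, 640 in Panc327 and 590 in SUIT2, RIPK4 had 3, 2158 and 2109, and C2CD2 had 1, 503 and 2115. Farther out, genes with more counts in BxPC3 lay on both sides, with distances taken between lowest coordinates, whichever the strand. With DMSO, BACE2 (-819 kb from ZBTB21) averaged 85.3 CPM in BxPC3, MX2 (-625 kb) 68.0 CPM and MX1 (-567 kb) 2.19 CPM. On the other side, TFF1 (375 kb) averaged 4.07 CPM and SLC37A1 (509 kb) 39.4 CPM. With THZ1, ZBTB21 had 6.25, 7.24 and 9.47 CPM in Panc327, against 20.8, 21.0 and 19.8 CPM with DMSO (log2 fold change -1.43, SE 0.14, edgeR adjusted p = 2.67e-15). In SUIT2 it had 16.2, 16.0 and 18.5 CPM with THZ1, against 22.3, 20.02 and 22.1 CPM with DMSO (log2 fold change -0.34, edgeR adjusted p = 0.0196), a call lost with DESeq2 and without any 1 of 4 SUIT2 libraries.

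**Figure D5:**
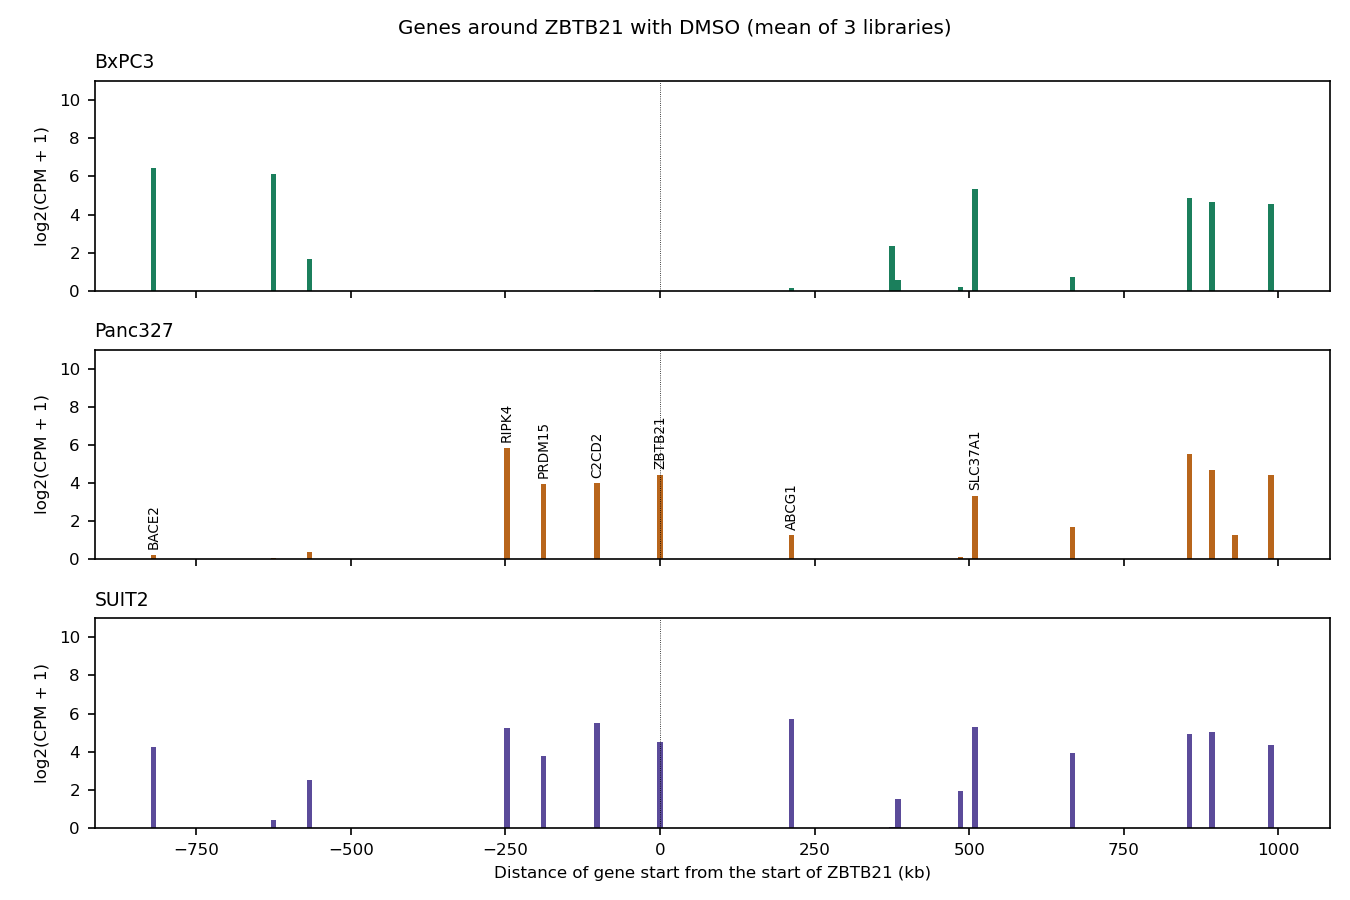
Mean level with DMSO as log2(CPM + 1) (vertical axes, bars from 0) of genes around ZBTB21 that reach a mean of 1 CPM in some line, by the distance in kb of each gene's start from that of ZBTB21 (horizontal axis), for BxPC3, Panc327 and SUIT2. A start here is the lowest coordinate of the gene, whichever its strand. RIPK4, PRDM15, C2CD2 and ZBTB21 show bars in Panc327 and SUIT2 and none above 0.1 in BxPC3, where BACE2, MX2 and MX1 on one side and TFF1 and SLC37A1 on the other are present.

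The genes left untested were ZBTB16, ZSCAN1, ZSCAN4, ZSCAN5B, ZSCAN10, ZSCAN18 and ZSCAN23. ZBTB16 (PLZF), ZSCAN10, a pluripotency factor, and ZSCAN18 had 0 counts in 18 libraries, which allows up to 0.0695 CPM over the 6 BxPC3 and 0.0695 CPM over the 6 Panc327 libraries and 0.0595 CPM over the 6 SUIT2 libraries. ZSCAN4, active in the early mouse embryo and in telomere upkeep, had 6 counts, all in Panc327, with 3 in the THZ1 and 3 in the DMSO libraries. ZSCAN1, ZSCAN5B and ZSCAN23 had 3, 5 and 5 counts in all.

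Related genes outside the 3 series also moved in BxPC3 and Panc327. Of 6 tested BTB zinc finger genes with other names, 4 fell and 1 rose in BxPC3, and 5 fell in Panc327. Of all genes tested, 34.1% fell and 35.2% rose in BxPC3, and 37.8% fell and 35.6% rose in Panc327. HIC2, a repressor that carries a BTB domain, averaged 58.0 ± 3.48 CPM with THZ1 and 16.7 ± 0.221 CPM with DMSO in BxPC3 (SD, n = 3, log2 fold change 1.79), and was not called in Panc327 (0.12), where it was called higher with RLE size factors (0.24) and lower with library size alone (-0.21). PATZ1 fell in all 3 lines, by 1.14, 2.04 and 0.30 on the log2 scale, and BCL6, the germinal centre repressor, fell by 1.62 in Panc327 and rose in SUIT2 (0.34). Both SUIT2 calls were lost with 1 library left out (PATZ1 without the third THZ1 or the third DMSO library, BCL6 without the second THZ1 library). Of 19 tested SCAN genes with other names, 14 fell and 3 rose in BxPC3, and 17 fell and 0 rose in Panc327. ZNF202 fell by 1.54, 3.48 and 0.38 in BxPC3, Panc327 and SUIT2.

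Corepressor partners were counted as well. Of 16 genes of BTB corepressors and the CUL3 ligase, 9 rose and 5 fell in BxPC3, 5 rose and 7 fell in Panc327, and 1 rose and 1 fell in SUIT2. Of all genes, 35.2% rose and 34.1% fell in BxPC3, 35.6% and 37.8% in Panc327, and 6.95% and 7.64% in SUIT2, and nothing particular to the partners is read from these counts. HDAC1 averaged 948 ± 7.45 CPM with THZ1 and 444 ± 19.0 CPM with DMSO in BxPC3, and 490 ± 11.4 CPM with THZ1 and 227 ± 2.88 CPM with DMSO in Panc327 (SD, n = 3, log2 fold changes 1.10 and 1.11). SIN3A, a corepressor scaffold, fell by 0.97 in BxPC3 and by 2.09 in Panc327. Of TRIM28 and 6 partners, 3 rose and 2 fell in BxPC3, 2 rose and 3 fell in Panc327, and 1 rose and 1 fell in SUIT2. TRIM28 rose (log2 fold changes 0.77 in BxPC3 and 0.35 in Panc327, the second 0.03 and not called with library size alone), SETDB1 fell by 1.61 and by 2.0, and CBX5, the heterochromatin protein HP1 alpha, fell in all 3 lines, by 1.21, 0.72 and 0.48 on the log2 scale.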

How the data were processed

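Each library has its own deposited file of raw read counts by gene symbol. The submitters' processing notes name hg38 as the build and list TopHat2 2.1.0, bcl2fastq 1.8.4 and HTSeq 0.6.1 as the authors' tools. RNA was extracted with RNeasy Mini and poly(A) libraries made with the TruSeq RNA v2 kit, per the labels' protocols. The sources used here do not give the annotation, strand setting or counting mode. Summary entries of the counting tool held 21.3% to 64.6% of records; neither library sizes nor tests include them.

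The main test was that of edgeR 4.0.16 in R 4.3.3 (filterByExpr with minimum count 10 and minimum total 15, TMM scaling, 1 robust quasi-likelihood fit of 6 group means with 12 residual degrees of freedom). The standard error is approximate, the absolute log2 fold change over the square root of the F statistic. TMM scales by a trimmed mean of log ratios between libraries, and the median gene lay near 0 in each line. Directions are therefore relative to the bulk of genes, and total RNA per cell is not measured. DESeq2 1.42.0 and limma 3.58.1 served as alternatives. Python 3.11.15 drew the figures and built the tables, using pandas 2.3.3, numpy 2.4.6 and matplotlib 3.10.9. Gene positions, exon lengths and overlaps are from GENCODE 29 on GRCh38, and promoters from RefSeq. The fit was checked on simulated counts. Counting intervals and floors cover counting error only.

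The members, gene lists and tests were chosen with earlier results of these data known. Values are given for 21 genes fixed by name, for the 5 largest called rises and 5 largest called falls with THZ1 in each line, and for the 3 per direction in differences of responses and between lines with DMSO. All such picks required 5 CPM or more on average in 1 of the compared groups and, except for differences of responses, groups that do not overlap. Other members with values (ZBTB32, ZBTB46, ZKSCAN4, ZKSCAN7, ZKSCAN8, ZSCAN16, ZSCAN31, ZSCAN32 and untested members) were chosen after their values were seen.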

Additional observations from a re-analysis of the deposited data

Results flagged for a closer look

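The THZ1 response of these genes differed between lines by a test of the difference itself, in log2 units with edgeR quasi-likelihood adjusted p. BxPC3 minus Panc327 gave 2.37 for ZBTB26 (adjusted p = 4.51e-08), 1.72 for ZSCAN9 (0.00106) and 1.46 for ZBTB33 (1.92e-15), each a smaller fall or no fall in BxPC3. It gave -2.09 for ZBTB42 (8.67e-07), -1.21 for ZBTB8A (6.24e-06) and -0.50 for ZBTB39 (0.00113).

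BxPC3 minus SUIT2 gave 2.78 for ZBTB20 (adjusted p = 0.0075), 1.96 for ZBTB34 (1.11e-22) and 0.76 for ZBTB10 (0.0013). With library size alone the ZBTB10 value was 0.38 and not called (adjusted p = 0.122). The ZBTB20 value rests on 9 counts with THZ1 and 2 with DMSO in BxPC3, and its call was lost without the third BxPC3 THZ1 library (2.25, adjusted p = 0.0922). The difference was -2.97 for ZSCAN26 (5.62e-14), -2.54 for ZBTB42 (1.60e-10) and -2.48 for ZSCAN20 (5.44e-07).

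Panc327 minus SUIT2 gave 2.43 for ZBTB20 (adjusted p = 5.19e-10), 1.53 for ZBTB34 (2.59e-18) and 0.33 for ZBTB43 (0.0249), and the ZBTB43 call was lost without any 1 of 6 libraries, without the filter and with library size alone. It gave -3.73 for ZSCAN26 (3.45e-16), -3.28 for ZSCAN20 (3.97e-07) and -2.83 for ZSCAN9 (4.33e-10).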

How the results depend on the processing

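Counts of members called kept within 1.5 times their value under most alternatives, with these exceptions. With scaling to library size alone, which moved the median of all genes to -0.35 in BxPC3 and -0.34 in Panc327, 5 members rose in BxPC3 (8 with TMM) and 2 in SUIT2 (4), and 3 had a higher response in BxPC3 than in SUIT2 (6) and 3 in Panc327 than in SUIT2 (5). In SUIT2, 2 members rose with RLE size factors, 2 without the filter, 2 with a replicate block, and 1 with DESeq2, where 2 fell (5 with edgeR), so the split of rises and falls there was 4 and 5, 2 and 5, 2 and 5, 2 and 5 or 1 and 2. Without the filter 3 had a higher response in Panc327 than in SUIT2, and with the third line left out of the fit 10 had a lower response in BxPC3 than in Panc327 (5). Leaving out 1 library gave 1 to 4 rises and 2 to 6 falls in SUIT2, 5 to 8 rises in Panc327, and 3 to 5 members with a higher response in Panc327 than in SUIT2. Scaling to library size alone turned ZBTB2 in Panc327 to -0.32, ZBTB18 in Panc327 to -0.25, ZBTB39 in Panc327 to -0.14, HIC2 in Panc327 to -0.21, ZBTB43 in BxPC3 to -0.022 and ZKSCAN8 in BxPC3 to -0.12. Of 186 gene results, 156 kept direction and call under every alternative, and 165 under all but library size alone. For genes with higher counts, deviations of log2 levels from their group mean were correlated between same-numbered THZ1 and DMSO libraries of each line. These correlations lay between -0.191 and 0.0673, so no effect shared by number was seen. These values cannot tell whether same-numbered libraries were prepared together. The block changed no other count of calls by over 1.5 times. Genes under about 5 CPM rest on few counts.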
